A study of Homo sapiens with 36 samples.

Results

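The 6 anti-V5 Cut&Run lists compared here came from 2 lines of 786-O cells: 3 libraries of cells that expressed HIF-1α and 3 of cells that expressed the chimera HIF-1α/2α. They were taken by the sample titles out of 36 samples and 18 anti-V5 lists, and other contigs than the 22 autosomes, X and Y were left out. The 786-O line is a human clear cell renal carcinoma line without functional VHL, makes no HIF-1α of its own, and in all 6 libraries still held its endogenous, untagged HIF-2α. Both proteins carried V5 and HaloTag at the N-terminus and were expressed from the weak L30 promoter, integrated by PiggyBac transposition, in puromycin-selected pools of cells. HIF-1α/2α keeps residues 1 to 363 of HIF-1α, with the DNA-binding and dimerization domains, and continues with residues 366 to 870 of HIF-2α, so the 2 proteins differ only in the C-terminal disordered region (IDR). The amount of each protein in these samples was not analysed here, so a difference in amount and a difference in the IDR cannot be told apart. The labels do not say whether the 3 replicates were separate cultures, and p-values measure only the spread between these libraries.

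HIF-α subunits pair with HIF-1β and read a short core motif, the hypoxia response element (HRE), through N-terminal regions that are closely alike in the 2 isoforms. The C-terminal IDR holds the oxygen-dependent degradation and transactivation regions and is where the isoforms differ most. HIF-1α is known for glycolytic targets and for sites near promoters, HIF-2α for more remote sites and, in renal carcinoma, for growth and angiogenic genes. Comparing HIF-1α/2α with HIF-1α asks where the genomic sites go when only the IDR is exchanged on a fixed DNA-binding region.

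The sites themselves show what the comparison is about. The following stretches hold the HRE nearest to the summit in regions that differed between the lines, each written 5′ to 3′ on the strand that reads the motif, with the HRE core (ACGTG or GCGTG) in capitals and positions on hg38. The first 4 belong to regions with higher enrichment in HIF-1α/2α.
MS4A10 intron, chr11:60789717-60789745, minus strand: gataaaccttctACGTGcattacctgatt
EGLN3 intron, chr14:34013437-34013465, plus strand: tgtggaatgtgtACGTGtgaaatcaccag
KLF6, remote, chr10:4242633-4242661, plus strand: ggacatcagcatACGTGcaagatgacaat
FOXL1, remote, chr16:86735203-86735231, minus strand: cacttagcaactGCGTGaccttgaggacc
The next 3 belong to promoters named for higher enrichment in HIF-1α, of which DMXL2 missed the threshold.
MXI1 promoter, chr10:110226941-110226969, plus strand: aggggagcgcgcGCGTGaggggaggggcg
CFDP1 promoter, chr16:75433490-75433518, plus strand: gcagagagtactACGTGgttgccctacga
DMXL2 promoter, chr15:51622979-51623007, plus strand: acccgcgtttgcGCGTGcgcgcgccgtgg
The last 4 belong to regions called in all 3 libraries of one line and none of the other, ANKFN1 and ALK in HIF-1α/2α, GPRC5C and RALGDS in HIF-1α.
ANKFN1 intron, chr17:56165193-56165221, minus strand: gaaacaggtcctACGTGaccctaaaggaa
ALK intron, chr2:29421470-29421498, plus strand: gactcctgagggACGTGctagtagaggag
GPRC5C promoter, chr17:74432183-74432211, minus strand: cgcgctccaggtACGTGcgctccgtttac
RALGDS promoter, chr9:133121334-133121362, plus strand: cgagggacgcgtGCGTGcgcgcgcccgcg
The MXI1 region of 2316 bp held 50 such cores, and the EGLN3 region of 1922 bp held 4. GC content within 100 bp of the summit was 74.1% at MXI1, 72.6% at DMXL2 and 76.1% at RALGDS, against 40.3% at EGLN3, 44.8% at MS4A10, 46.3% at KLF6, 60.2% at FOXL1 and 36.8% at ANKFN1, beside a mean of 56.3% over shared regions. The printed core lay within 50 bp of the summit at MXI1, DMXL2 and GPRC5C, and 54 to 159 bp from it at the other 8.

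The HIF-1α/2α lists held 13060, 18999 and 11679 peaks and the HIF-1α lists 15058, 20572 and 15909. Replicate 2 gave the longest list in both lines, and the ranges overlapped. The difference of -0.26 on the log2 scale did not pass (two-sided exact permutation test, p = 0.4, where 3 against 3 libraries cannot go below 0.1). Depth of sequencing, inferred from the lists as fragments per base, was 0.410, 0.284 and 0.303 in HIF-1α/2α and 0.409, 0.384 and 0.296 in HIF-1α. Because a longer list reaches weaker peaks, list measures were also computed on the 11679 strongest peaks of each list, which is all of the shortest list. Untagged wild-type cells marked the background of the antibody, with lists of 392, 9508 and 743 peaks, of which that of replicate 2 stood apart. The 498 regions called in at least 2 of their 3 libraries were left out, and 25285 of 25783 regions were kept.

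Fewer peaks lay at promoters in HIF-1α/2α, and more lay far from any start site, when lists of equal length were compared. In these lists of equal length, the share of peaks with a summit within 1 kb of a protein-coding start site was 30.5%, 29.2% and 28.5% in HIF-1α/2α and 34.6%, 32.2% and 32.9% in HIF-1α. Every HIF-1α/2α library was below every HIF-1α library, by 3.81 percentage points on average (exact permutation test, p = 0.1, 0.3 after adjustment over 36 tests of list measures). In the full lists the shares were 29.3%, 24.3% and 28.5% against 33.1%, 28.3% and 30.9% with overlap between the groups (difference -3.36, exact permutation p = 0.3). The share of peaks more than 100 kb from any start site was higher, with 13.7%, 13.8% and 14.1% in HIF-1α/2α and 10.7%, 12.1% and 11.8% in HIF-1α at equal length (difference 2.33, exact permutation p = 0.1, adjusted 0.3). Mean GC content at the summits was 54.7%, 54.2% and 53.6% against 56.7%, 55.9% and 55.9%, again without overlap (difference -2.01, exact permutation p = 0.1). GC content moved with the promoter share. With each full list weighted to the same GC composition, the difference in promoter share was -0.129 points (exact permutation p = 0.7).

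**Figure D1:**
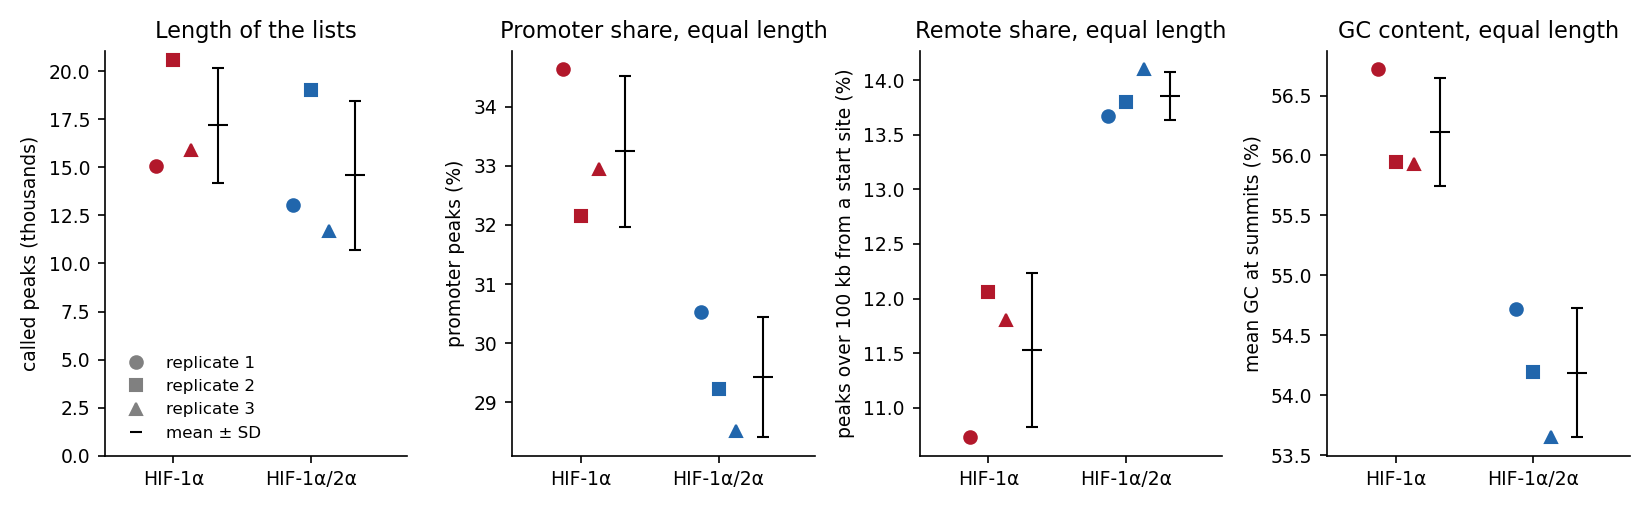
Number of called peaks per library (first panel) and, in lists of equal length, the percent of promoter peaks, the percent of peaks over 100 kb from a start site and the mean percent GC at summits for HIF-1α (red) and HIF-1α/2α (blue). Symbols are the 3 replicates and black bars the mean with SD; only the first vertical axis starts at 0. List lengths overlapped between the lines, while the 3 HIF-1α/2α libraries sat below the HIF-1α libraries in promoter share and GC content and above them in the remote share.

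Genes with a peak at a promoter were fewer in HIF-1α/2α, with 3484, 4153 and 3064 genes against 4541, 5289 and 4500 in HIF-1α. At equal length the counts were 3265, 3163 and 3064 against 3749, 3524 and 3602, so the difference of -1210 genes became -461, and the groups overlapped in neither case (exact permutation p = 0.1 for each, the smallest possible). Of 7568 genes with a promoter peak in any of the 6 full lists, 1698 had one in all 6. Of the same 7568 genes, 14 had one in 3 of 3 HIF-1α/2α libraries and no HIF-1α library, and 190 the reverse. At equal length these last 2 counts were 24 and 99, of 6126 genes with a promoter peak in any list.

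The HRE stood out at the summits in both lines. The HRE excess, the percent of peaks with ACGTG or GCGTG on either strand within 50 bp of the summit minus the percent in windows 1 kb to each side, was 12.0, 9.17 and 11.9 points in HIF-1α/2α and 11.8, 11.7 and 11.4 in HIF-1α (difference -0.60, exact permutation p = 1). Without HIF-1α/2α replicate 2 the difference was 0.321. Split by position, the excess at promoter peaks of the full lists was 23.0, 19.9 and 21.7 points in HIF-1α/2α against 19.5, 20.3 and 19.6 (difference 1.69, exact permutation p = 0.2). At peaks beyond 10 kb it was 7.79, 5.64 and 8.16 against 8.41, 8.73 and 8.19 (difference -1.24, exact permutation p = 0.1). At equal length the difference at promoter peaks was 0.825 points (exact permutation p = 0.4) and beyond 10 kb -1.75 points (exact permutation p = 0.2), so no position gave a difference in HRE excess beyond the spread in both kinds of list.

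Motifs of other factors were searched in the same windows. The AP-1 motif (TGACTCA or TGAGTCA), which HIF does not recognize, had an excess of 6.69, 6.87 and 6.63 points in HIF-1α/2α and 6.67, 6.72 and 6.20 in HIF-1α at equal length (difference 0.201, exact permutation p = 0.5). The SP/KLF motif GGGCGG, common in GC-rich promoters, had an excess of 10.7, 8.99 and 8.79 points against 12.0, 10.8 and 10.8, without overlap (difference -1.72, exact permutation p = 0.1, adjusted 0.3). The E-box CACGTG, in which every copy also counts as an HRE, had 1.49, 1.25 and 1.22 points against 1.63, 1.71 and 1.82 (difference -0.398, exact permutation p = 0.1). GATAAG and the HNF1-type motif GTTAAT were below their flanking windows in all 6 lists, by less in HIF-1α/2α (differences 0.361 and 0.462, exact permutation p = 0.1 for each). None of these differences passed after adjustment, where the lowest value was 0.3.

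Most sites of endogenous HIF-2α were called in both lines. Of 5049 regions called in at least 2 of 3 libraries of cells with tagged endogenous HIF-2α, the HIF-1α/2α lists called 82.0%, 89.4% and 80.8% and the HIF-1α lists 86.3%, 93.7% and 88.9% (difference -5.61 points, exact permutation p = 0.3; -1.69 at equal length). Of the 25285 regions, 23189 were called in at least 1 of the 6 libraries and 5072 in all 6. The Jaccard index, the share of called regions that 2 libraries have in common, averaged 0.506 among HIF-1α/2α libraries, 0.561 among HIF-1α libraries and 0.491 between the lines. The mean within lines exceeded that between lines by 0.0427 (exact permutation test over 10 splits, p = 0.1, the smallest possible), and at equal length by 0.0408 (exact permutation p = 0.1).

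Regions called in 3 of 3 libraries of one line and in none of the other numbered 123 for HIF-1α/2α, which is 0.486% of all regions, and 616 for HIF-1α, which is 2.44%. At equal length they numbered 236 (0.933%) and 330 (1.31%). A single region called 3 times against 0 cannot pass a test with these numbers, and the counts are a description that moves with list length. With 1 library of either line left out, which relaxes the rule, they numbered 173 and 1460 without HIF-1α replicate 1, 399 and 845 without HIF-1α/2α replicate 3, and values between these for the other 4 libraries. The HIF-1α/2α-only regions were remote and AT-rich: 11.4% lay at promoters, 36.6% lay more than 100 kb from a start site and their mean GC content was 47.0%. Among HIF-1α-only regions 32.3% lay at promoters, 10.1% beyond 100 kb and mean GC was 57.6%, while for all regions called in any of the 6 libraries these values were 29.7%, 13.7% and 54.2%. An HRE lay within 50 bp of the summit in 14.6% of HIF-1α/2α-only and 31.2% of HIF-1α-only regions, against 25.5% of all. The longer motif TACGTG lay there in 3.25%, 3.57% and 2.93%, and at equal length in 5.93% and 3.64% of the 2 sets. These motif shares were not corrected for GC content. Regions of endogenous tagged HIF-2α, called in at least 2 of 3 knock-in libraries, made up 4.88% and 9.25% of the 2 sets, against 20.0% of all; at equal length these shares were 13.1% and 15.5%. Wild-type libraries called 0%, 6.50% and 0% of the first set and 0%, 9.90% and 0.162% of the second.

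The regions ranked highest in the lists of the line that called them are members of these same sets, and their positions are no separate sign of the split. For HIF-1α/2α they were an intron of ANKFN1, at 8.90 kb from its start site, with 46, 116 and 89 fragments at the summit, a site 256 kb from POU3F1, a POU-domain transcription factor, with 34, 88 and 50, and sites near ERCC4, a DNA repair nuclease, ALK, a receptor tyrosine kinase, and HECTD2. None of these 5 lay at a promoter, beside 11.4% of all HIF-1α/2α-only regions. For HIF-1α they were the promoter of GNAI2, an inhibitory G-protein subunit, with 45, 95 and 58 fragments, the promoters of RALGDS and GPRC5C, and sites near ENPP7 and BAK1. The ANKFN1 region was also called in 3 of 3 HIF-2α and 0 of 3 HIF-2α/1α libraries, and the GNAI2 region in 1 of 3 and 3 of 3.

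The same exchange of the IDR on the other DNA-binding region, HIF-2α against HIF-2α/1α (HIF-2α up to residue 365 joined to HIF-1α from residue 364), took no part in choosing these regions. At the 236 HIF-1α/2α-only regions of equal length, HIF-2α libraries called 25.4%, 32.2% and 28.0% and HIF-2α/1α libraries 5.08%, 5.51% and 3.81%, with each list cut to 5906 peaks. The 3 libraries that carry the HIF-2α IDR were all higher, by 23.7 points (exact permutation p = 0.1, adjusted 0.2 over 4 tests). At the 330 HIF-1α-only regions the order was the reverse, with 8.79%, 10.0% and 8.79% in HIF-2α against 27.3%, 30.0% and 27.0% in HIF-2α/1α (difference -18.9, exact permutation p = 0.1, adjusted 0.2). HIF-2α/1α replicate 2 holds folds and p-values from which no whole fragments could be solved (0.12% of peaks matched), and without it the differences were 24.1 and -17.9 points (exact permutation p = 0.1 for each, the smallest that 3 against 2 libraries allow). Over all regions the 2 lines called 20.5% and 22.1%. In full lists, where HIF-2α held 6590, 20651 and 5906 peaks and HIF-2α/1α 16977, 20808 and 12371, HIF-2α called 26.0%, 78.9% and 26.8% of the 123 regions and HIF-2α/1α 39.8%, 46.3% and 17.1% (exact permutation p = 0.8). Without HIF-2α replicate 2 the mean difference turned from 9.49 to -7.99 points.

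Enrichment could be compared directly at the 5072 regions called in all 6 libraries. Wild-type replicates 1, 2 and 3 called 0.0197%, 18.9% and 0.631% of these regions. The deposited fold enrichment at the summit, as log2 and centred on each library, was fitted with limma. It was higher in HIF-1α/2α at 30 regions (0.591%) and lower at 2 (0.0394%) at an adjusted p below 0.05, with an SE of 0.479 for each region. This SE was pooled over all regions, so the spread between libraries at a single site did not enter its p-value or interval. Groups did not overlap at 10.6% of regions with HIF-1α/2α above and at 6.43% with HIF-1α above. Quantile normalization gave 19 higher and 8 lower, no centring 5 and 1, and rank scores within each list 0 and 0 (920 regions at an unadjusted p below 0.05). The count of higher regions was 16, 6 and 19 without HIF-1α/2α replicates 1, 2 and 3, and 4, 16 and 16 without HIF-1α replicates 1, 2 and 3. Whole fragments at each summit could be recovered from the fold and p-value of every peak of these 6 lists, and do not involve the control library. Fragments over depth, a measure added after the data were seen, were higher in HIF-1α/2α at 638 regions (12.6%) and lower at 239 (4.71%), and groups did not overlap at 22.0% and 14.0%. Quantile normalization changed this split to 409 and 309, while without centring only 7 regions passed, all higher. The higher and lower counts were 368 and 143 without HIF-1α/2α replicate 2, and 402 and 113, 497 and 121, and 382 and 113 without HIF-1α replicates 1, 2 and 3. Of the 32 regions passed on enrichment, 30 passed on fragments. The fragments were solved from the same fold values, so this overlap is no independent support.

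The regions higher in HIF-1α/2α were led by intronic and remote sites. At an intron of MS4A10, which encodes a membrane-spanning protein, 4.48 kb from its start site (chr11:60788941-60790083), the fold was 50.0, 65.6 and 24.2 in HIF-1α/2α and 6.26, 9.00 and 6.20 in HIF-1α, from 72, 118 and 45 against 9, 12 and 12 fragments. The log2 difference in enrichment was 2.74 (95% interval 1.81 to 3.68, adjusted p = 5.1e-05). This site was called in 2 of 3 HIF-2α libraries, in no HIF-2α/1α library and in no knock-in library.

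EGLN3 encodes prolyl hydroxylase PHD3, an oxygen sensor that marks HIF-α for destruction and is itself a HIF target. Its intronic site 62.5 kb from the start site (chr14:34012448-34014369) had a fold of 38.6, 58.0 and 35.2 against 7.19, 14.4 and 6.94, from 82, 114 and 50 against 11, 19 and 8 fragments. The log2 difference in enrichment was 2.39 (limma, adjusted p = 7.5e-04). On the HIF-2α DNA-binding region, HIF-2α exceeded HIF-2α/1α there by 2.14 (adjusted p = 0.022). A further 2 sites in EGLN3 introns, at 84.8 and 93.1 kb, passed on fragments with log2 differences of 1.16 and 0.78.

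The other 4 sites with the largest differences were an intron of ARHGAP18, a GTPase-activating protein (2.57), and sites 137 kb from TRHR, the receptor for thyrotropin-releasing hormone (2.57), 457 kb from KLF6, a zinc finger factor (2.31), and 157 kb from FOXL1, a forkhead factor (2.29). At ARHGAP18 the fold was 35.2, 47.7 and 59.6 in HIF-1α/2α against 5.99, 5.59 and 18.8 in HIF-1α, and at TRHR it was 48.9, 108 and 28.1 against 5.32, 14.4 and 12.4. At KLF6 the fold was 33.3, 37.9 and 32.4 against 6.21, 5.38 and 13.2, and HIF-2α exceeded HIF-2α/1α by 2.08 (adjusted p = 0.022). At FOXL1 the fold was 64.9, 122 and 38.4 against 7.18, 23.7 and 20.0. HIF-2α minus HIF-2α/1α was 1.21 at TRHR and 1.58 at FOXL1 and did not pass (adjusted p = 0.37 and 0.16). At all 4 sites the groups did not overlap, as at 10.6% of all shared regions with HIF-1α/2α above. These sites were chosen for their large differences, so the lack of overlap adds no support. In fragments over depth the log2 differences were 1.88 at ARHGAP18, 2.47 at TRHR, 1.32 at KLF6 and 2.56 at FOXL1. Without centring the FOXL1 difference in enrichment no longer passed (adjusted p = 0.055). The remaining 24 included a site 83.2 kb from CITED2, which competes with HIF-α for the coactivator p300, with a fold of 30.9, 94.5 and 46.4 against 14.5, 25.4 and 11.6 (adjusted p = 0.033), a site 56.0 kb from STC1, a hormone of calcium balance (2.04), a site 146 kb from JUN, an AP-1 subunit (1.97), and introns of RPTOR, the mTORC1 scaffold (1.94), and PTGES, a prostaglandin synthase (1.90); these were chosen from the 24 after their values were seen. In fragments over depth the log2 differences were smaller, with 1.71 at CITED2, 0.82 at STC1, 1.25 at JUN, 1.19 at RPTOR and 1.28 at PTGES. On enrichment none of the remaining 24 passed without centring (lowest adjusted p = 0.080), and none of the 30 with rank scores.

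Both regions that were lower in HIF-1α/2α were promoters. MXI1 encodes a MYC antagonist through which HIF-1α is known to restrain mitochondrial biogenesis. At its promoter, 47 bp from the start site (chr10:110225313-110227628), the fold was 5.19, 14.2 and 4.41 in HIF-1α/2α and 35.3, 28.4 and 36.4 in HIF-1α, from 30, 66 and 25 against 67, 118 and 60 fragments. The log2 difference was -2.14 in enrichment (95% interval -3.07 to -1.20, adjusted p = 0.0046) and -0.88 in fragments over depth (adjusted p = 0.019), so the fold differed more than the fragments. Between HIF-2α and HIF-2α/1α it was -0.61 in enrichment and did not pass (adjusted p = 0.73).

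At the CFDP1 promoter the fold was 8.38, 11.9 and 3.60 against 25.3, 36.2 and 23.9 (log2 difference -1.84, adjusted p = 0.024). Its fragments, 23, 40 and 18 against 47, 64 and 36, did not pass (adjusted p = 0.054), nor did enrichment without centring (adjusted p = 0.11). CFDP1 encodes a protein of chromatin and chromosome maintenance. The next 4 sites by p, which missed the threshold on enrichment (adjusted p between 0.052 and 0.068), lay 0.901 kb from CELSR3, an atypical cadherin, 34.1 kb from TMEM270, in an intron of CACNA1A, a calcium channel subunit, and 0.153 kb from DMXL2, which takes part in proton pump assembly. Of these, CELSR3 and TMEM270 passed on fragments (log2 differences -1.17 and -0.89). With quantile normalization CELSR3, TMEM270 and CACNA1A passed on enrichment (adjusted p = 0.048, 0.043 and 0.048).

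**Figure D2:**
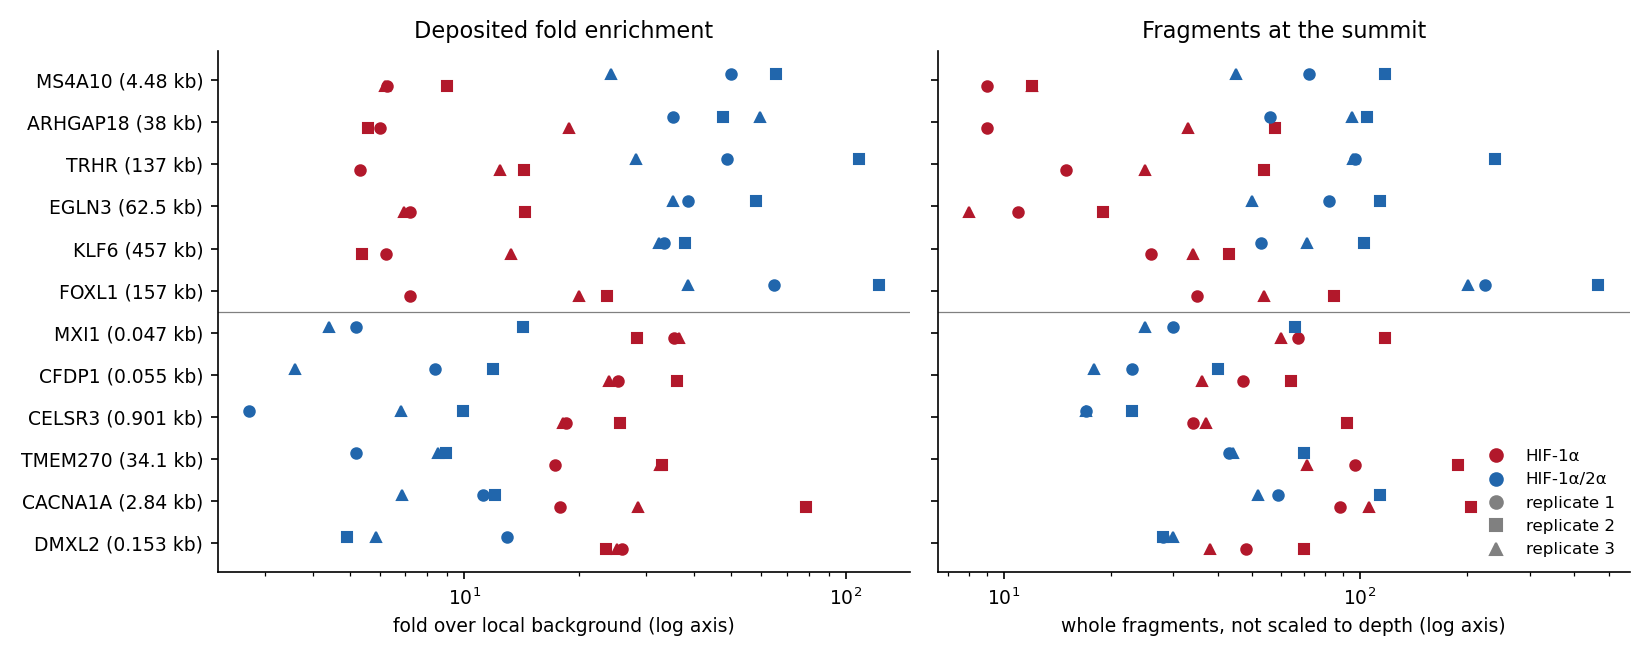
Deposited fold enrichment (left) and recovered whole fragments not scaled to depth (right), both on log axes, at the 6 regions named in each direction, for 3 HIF-1α (red) and 3 HIF-1α/2α (blue) libraries; the row labels give the nearest gene and distance to its start site. At MS4A10 the fold was at least 24.2 in HIF-1α/2α and at most 9.00 in HIF-1α, and at MXI1 at most 14.2 against at least 28.4.

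Position separated the 2 directions across all shared regions. Fragments were higher in HIF-1α/2α at 66 and lower at 101 of 1752 promoter regions, but higher at 149 and lower at 12 of 577 regions beyond 100 kb. With quantile normalization the promoter regions split into 38 higher and 140 lower. The promoter split moved with the libraries used: it was 33 and 38, 47 and 48, and 35 and 39 without HIF-1α replicates 1, 2 and 3, and 43 and 89, 41 and 52, and 51 and 63 without HIF-1α/2α replicates 1, 2 and 3. By GC content, the lowest quintile, with a mean of 40.9% GC, held 242 higher and 11 lower of 979, and the highest, with a mean of 72.4%, held 35 higher and 66 lower of 1038. The regions higher on fragments had a mean GC of 49.5%, lay at promoters in 10.3% of cases and had an HRE at the summit in 24.1%. The lower regions had 61.0%, 42.3% and 41.0%, and all shared regions 56.3%, 34.5% and 33.0%. The longer motif TACGTG lay at the summit in 5.80% of the higher, 4.18% of the lower and 4.51% of all shared regions. These motif shares were not corrected for GC content.

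**Figure D3:**
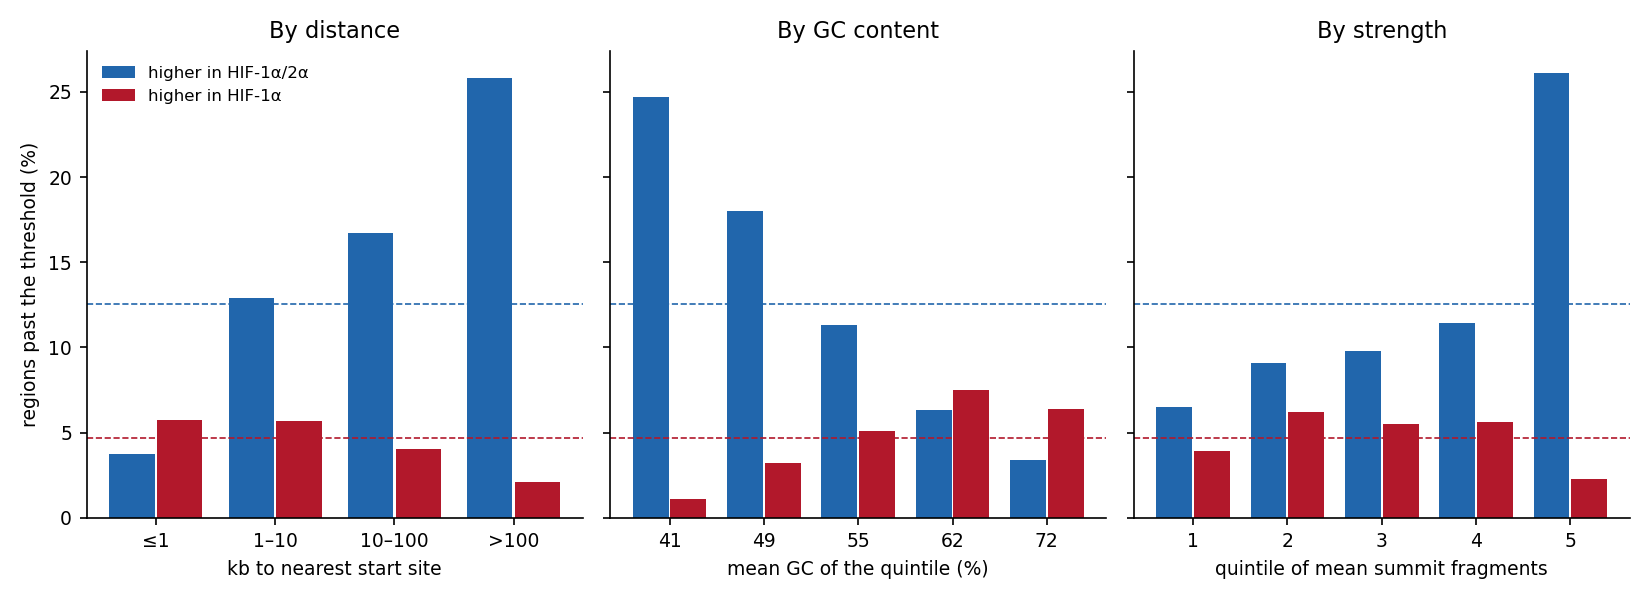
Percent of shared regions whose fragments over depth passed as higher in HIF-1α/2α (blue bars) or higher in HIF-1α (red bars), by distance to the nearest start site in kb, by quintile of GC content labelled with its mean, and by quintile of mean summit fragments. Dashed lines are the shares over all 5072 regions, 12.6% and 4.71%; the blue bars rise from 3.77% at promoters to 25.8% beyond 100 kb.

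In contrasts between classes of shared regions within a library, a constant factor on all folds of that library cancels. They give 1 value for each list. Differences between libraries in depth or in signal over background can still enter them. The mean log2 enrichment at promoters minus that beyond 10 kb was -0.28, -0.45 and -0.33 in HIF-1α/2α and 0.06, -0.03 and -0.04 in HIF-1α, a difference of -0.35 without overlap (exact permutation p = 0.1, adjusted 0.167 over 30 contrasts). HIF-2α against HIF-2α/1α differed by -0.37 in the same contrast. The 2 differences did not differ beyond the spread (exact permutation p = 0.925), and together they were the most extreme of 400 relabellings made within each DNA-binding region (exact permutation p = 0.005, the smallest possible). The contrasts and this joint test were not planned beforehand, and the joint p-values here and below are not adjusted. Without HIF-2α/1α replicate 2 the promoter contrast differed by -0.42 between HIF-2α and HIF-2α/1α, and p over both DNA-binding regions was again 0.005. The contrast between the highest and lowest GC quintiles was -0.26, -0.49 and -0.30 against 0.26, 0.06 and 0.11 (difference -0.49, exact permutation p = 0.1; both DNA-binding regions, p = 0.005).

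The 2 contrasts share regions, since 851 of the 1038 regions of the highest GC quintile and 60 of the 979 of the lowest lay at promoters. Each was therefore also computed with the other limited. The promoter contrast was also averaged within GC quintiles 2 to 4. The lowest and highest quintiles, and with them the 851 promoters of the highest, took no part. It was then -0.31, -0.37 and -0.31 against -0.06, -0.11 and -0.14 (difference -0.23, exact permutation p = 0.1, and p = 0.005 over both DNA-binding regions). Among regions beyond 10 kb, the GC contrast was -0.11, -0.34 and -0.08 against 0.32, 0.11 and 0.07 (difference -0.35, exact permutation p = 0.1; both DNA-binding regions, p = 0.005). Among promoters the GC contrast was -0.34, -0.58 and -0.42 against 0.25, -0.23 and 0.07. The difference was -0.47 (exact permutation p = 0.1), near the -0.49 over all shared regions. Over both DNA-binding regions p was 0.005 in the same permutation test, or 0.01 without HIF-2α/1α replicate 2. Without these limits, the promoter and GC contrasts in fragments over depth differed by -0.37 and -0.56 (exact permutation p = 0.1 for each). GC content also bears on how chromatin is cut and amplified, and its part in these differences was not tested.

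Regions with an HRE stood less far above those without one in HIF-1α/2α. Mean GC was higher where an HRE was present, at promoters (66.6% against 64.1%) and beyond 10 kb (53.1% against 49.6%). The HRE and GGGCGG contrasts were not limited by GC content, and its part in them was not tested. At shared promoters the mean enrichment of regions with an HRE minus those without was 0.06, 0.05 and 0.03 in HIF-1α/2α and 0.15, 0.14 and 0.13 in HIF-1α (difference -0.09, exact permutation p = 0.1; both DNA-binding regions, p = 0.005). Beyond 10 kb it was -0.02, -0.02 and 0.04 against 0.10, 0.12 and 0.03, with overlap (difference -0.08, exact permutation p = 0.2; both DNA-binding regions, p = 0.015, or 0.025 without HIF-2α/1α replicate 2). A GGGCGG at promoters gave 0.01, -0.10 and -0.01 against 0.12, 0.05 and 0.06 (difference -0.11, exact permutation p = 0.1; both DNA-binding regions, p = 0.005). An AP-1 motif beyond 10 kb gave a difference of -0.04 (exact permutation p = 0.4; both DNA-binding regions, p = 0.575, or 0.08 without HIF-2α/1α replicate 2), and membership in the knock-in regions one of 0.07 (exact permutation p = 0.5; both DNA-binding regions, p = 0.48). These 2 features did not separate the lines beyond the spread of the libraries.

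**Figure D4:**
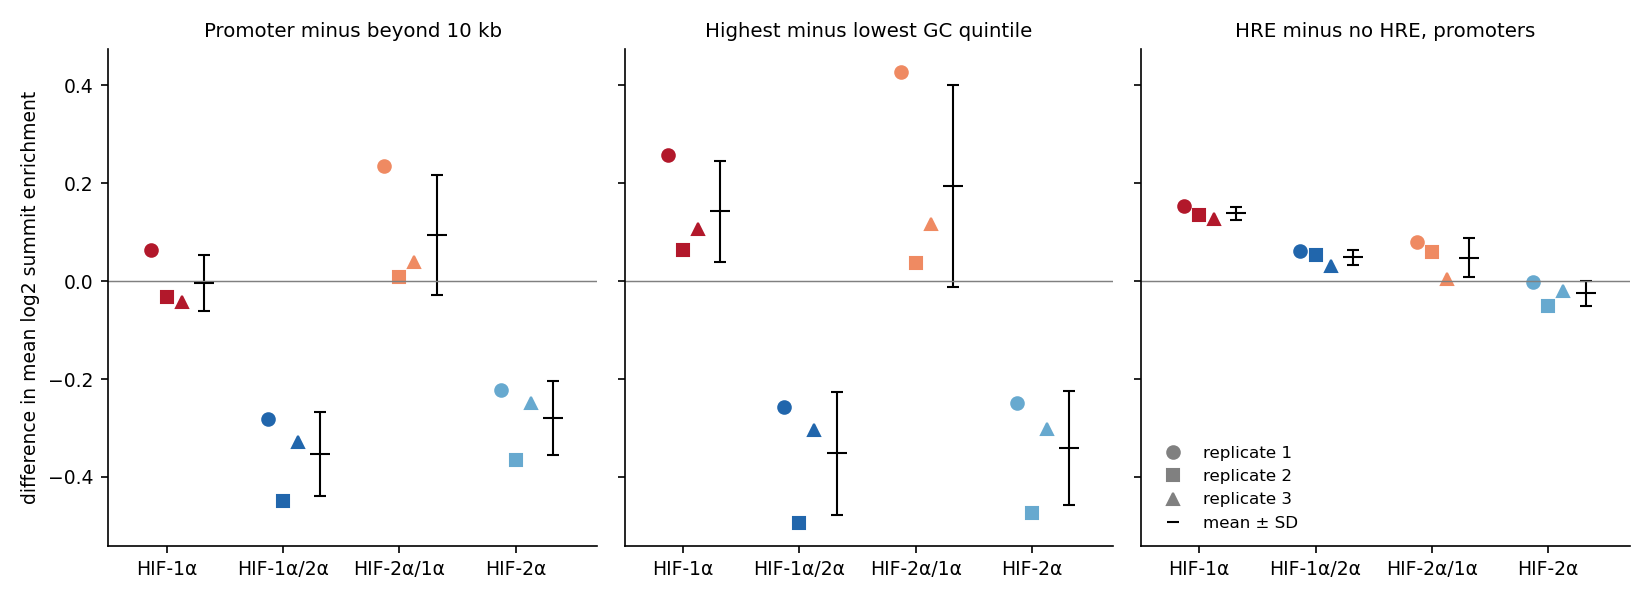
Difference in mean log2 summit enrichment between 2 classes of shared regions, 1 point per library, for the 2 lines with the HIF-1α DNA-binding region (HIF-1α and HIF-1α/2α) and the 2 with that of HIF-2α (HIF-2α/1α and HIF-2α); black bars are the mean with SD and the line marks 0. In the promoter and GC contrasts all 6 libraries that carry the HIF-2α IDR lie below 0, and in the promoter contrast HIF-1α lies between -0.04 and 0.06.

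Of the shared regions of genes known to answer to hypoxia, those that passed on fragments were higher in HIF-1α/2α, with the exception of MXI1. Over 7 lists of such genes, 375 regions had their nearest start site in a listed gene within 100 kb, 161 of them were called in 3 of 3 HIF-1α/2α and 151 in 3 of 3 HIF-1α libraries, and 129 were called in all 6. On enrichment 2 of the 129 were higher and 1 lower. On fragments over depth 41 were higher (31.8%) and 1 lower, beside 12.6% and 4.71% of all shared regions, and the median log2 difference was 0.57 beside 0.05. With quantile normalization 17 were higher (13.2%, beside 8.06% of all) and 2 lower, and without HIF-1α replicate 3 the count was 27. Without centring, 1 of the 129 was higher. Strength moved with this count: 71 of the 129 lay in the strongest quintile of shared regions, where 26.1% of all regions and 32.4% of the listed ones were higher. In the other 4 quintiles, from weakest to strongest, 6.50%, 9.07%, 9.76% and 11.4% of all regions were higher beside 3 of 14, 4 of 11, 4 of 10 and 7 of 23 listed ones. The part of strength in the result was not tested.

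Among glycolytic genes, 9 of 43 shared regions were higher and none lower on fragments in limma (22 and 0 at an unadjusted p below 0.05), beside 12.6% higher and 4.71% lower of all shared regions (20.7% and 11.3% unadjusted). On enrichment none passed (6 higher and 0 lower unadjusted, beside 7.99% and 4.42% of all). At a site 14.7 kb from SLC2A1, the glucose transporter GLUT1, fragments were 79, 86 and 39 in HIF-1α/2α and 23, 49 and 25 in HIF-1α (log2 difference over depth 1.28, adjusted p = 0.0035). At a site 55.3 kb from HK2, the first kinase of glycolysis, they were 80, 128 and 77 against 28, 69 and 35 (1.39, adjusted p = 6.7e-04). The promoters of SLC2A3, the glucose transporter GLUT3 (1.50), and TPI1, triose phosphate isomerase (1.28), also rose, as did those of LDHA, lactate dehydrogenase (0.93), and GAPDH (1.05), but the last 2 did not pass with quantile normalization (adjusted p = 0.40 and 0.14). The PGK1 promoter, a glycolytic kinase, had a difference of 0.68 that did not pass (adjusted p = 0.099). Of 11 regions of genes of pyruvate and mitochondrial control, MXI1 alone passed, in the other direction.

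Among oxygen sensing and feedback genes, 8 of 19 shared regions were higher on fragments and none lower (11 and 1 at an unadjusted p below 0.05, beside 20.7% and 11.3% of all shared regions), and 2, at EGLN3 and CITED2, were also higher on enrichment. The 8 comprised 3 introns of EGLN3, the site near CITED2, 3 sites at BHLHE40, a repressor of clock and metabolic genes, and the promoter of KDM4B, a histone demethylase. At CITED2 fragments were 126, 209 and 87 against 33, 85 and 36 (log2 difference over depth 1.71, adjusted p = 2.9e-04). With quantile normalization KDM4B, 1 EGLN3 intron and 2 BHLHE40 sites did not pass.

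Angiogenic and vasoactive genes had the highest share, with 12 of 20 shared regions higher and none lower on fragments (13 and 0 at an unadjusted p below 0.05, beside 20.7% and 11.3% of all shared regions). On enrichment none passed in limma (7 higher and 0 lower unadjusted). At the VEGFA promoter, the main angiogenic growth factor, fragments were 215, 348 and 228 against 102, 185 and 108 (1.23, adjusted p = 0.0014). At a site 24.8 kb away they were 92, 97 and 73 against 39, 71 and 30 (1.20, adjusted p = 0.0031). The others that are named here lay at ANGPTL4, an angiopoietin-like lipase inhibitor (2 sites), ADM, the vasodilator adrenomedullin, and TGFA, a ligand of the EGF receptor (3 sites). With quantile normalization 4 of the 12 passed, among them 1 each at VEGFA, ANGPTL4 and ADM.

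In the growth and stress list 9 of 18 shared regions were higher and none lower on fragments (11 and 0 at an unadjusted p below 0.05, beside 20.7% and 11.3% of all shared regions), among them sites of CCND1, cyclin D1 (1.14), DDIT4, an mTORC1 inhibitor (0.90), NDRG1, PLIN2, a lipid droplet coat protein, and IGFBP3. With quantile normalization 3 of the 9 passed, and 1 IGFBP3 site turned to -0.025. In pH control 1 of 7 was higher, near the 12.6% of all shared regions, at an intron of CA12, a carbonic anhydrase (1.07), and in matrix modification 2 of 11, both at LOXL2, a lysyl oxidase (0.88 and 0.84); none of these 3 passed with quantile normalization. These list members, apart from the 2 with the largest enrichment difference in each list, were named after their values were seen because they passed.

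For comparison, 3 of 16 shared regions of genes of AP-1 subunits were higher on fragments, 2 at JUN and 1 near JUNB, and 1 was lower, near FOSL2. Over all shared regions 12.6% were higher and 4.71% lower, and counts this small do not set these genes apart. Of 9 regions of kidney lineage factors 1 was higher, and of 10 regions of ribosomal protein genes none passed in limma in either direction (0 higher and 1 lower at an unadjusted p below 0.05). Of 6 loci that the study names in its text, 9 regions were shared, and PTPRN and PPFIA4 carried the 3 that were lower. At the PTPRN intron, 2.65 kb from the start site of this receptor-type phosphatase of secretory granules, fragments were 62, 63 and 40 in HIF-1α/2α and 93, 197 and 79 in HIF-1α (log2 difference over depth -0.86, adjusted p = 0.021). At the PPFIA4 intron, 4.05 kb into this liprin gene, they were 34, 58 and 31 against 70, 140 and 61 (-0.89, adjusted p = 0.011). The 3 that were higher lay at TGFA, and none of them passed with quantile normalization (adjusted p between 0.052 and 0.20). HSD3B7 had a site called in 3 HIF-1α/2α and 2 HIF-1α libraries and another called in 3 and 1, and PLXNA2 had sites called in at most 1 library of each line. These loci were chosen by the study on these samples, for different reasons, and are no independent sign of direction.

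**Figure D5:**
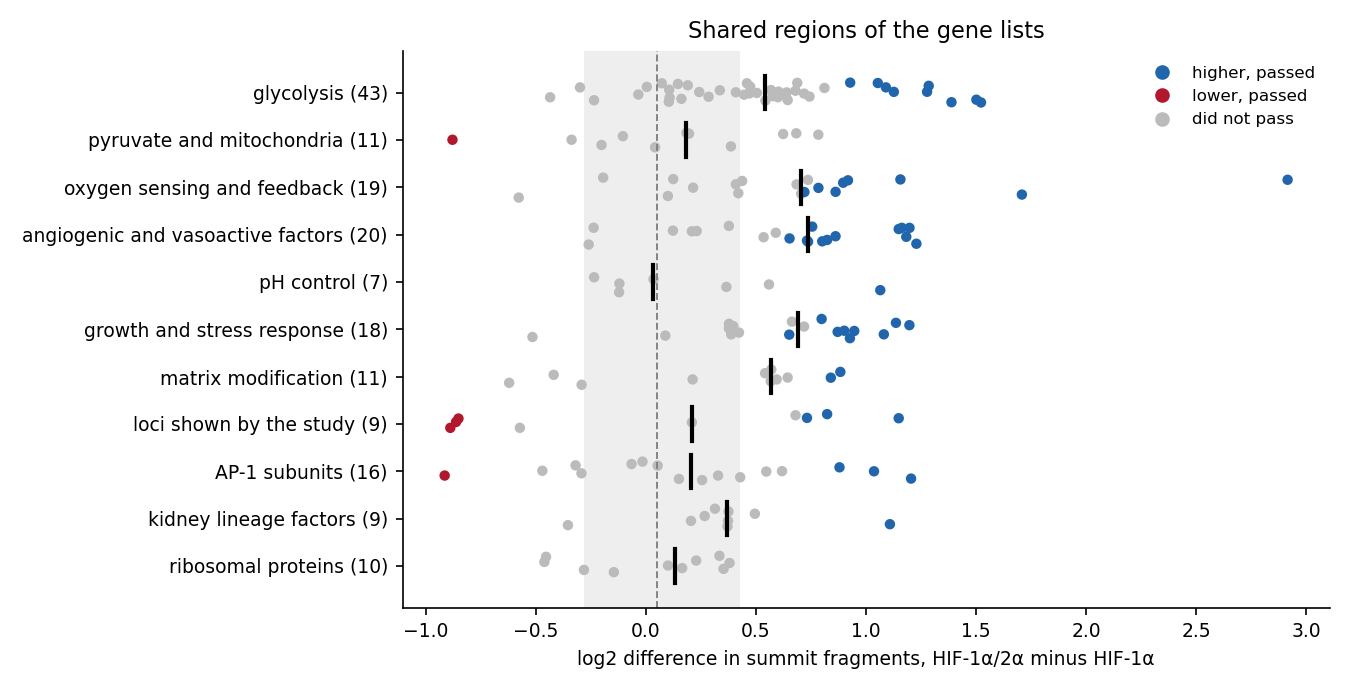
Log2 difference in fragments over depth, HIF-1α/2α minus HIF-1α, at shared regions of each gene list, with the number of regions in brackets; blue and red points passed as higher and lower, grey points did not pass, and black bars are medians. The dashed line is the median of all 5072 shared regions, 0.05, and the grey band their interquartile range; the medians of the oxygen sensing, angiogenic and growth lists lie near 0.7.

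Regions that passed here were also measured with the other DNA-binding region, in 6 libraries that took no part in the fit. Of the 30 regions higher on enrichment, 21 were called in all 6 HIF-2α and HIF-2α/1α libraries, and 20 of these were higher in HIF-2α than in HIF-2α/1α, with a median log2 difference of 1.02. Only 2 of the 21 passed there. Without HIF-2α/1α replicate 2, 19 of the 21 were higher. Of the 638 regions higher on fragments, 484 were measured there and 393 were higher in HIF-2α. Of the 239 lower regions, 89 were measured and 63 were lower, or 58 without that library. Over all 2566 regions measured with both DNA-binding regions, 54.5% were higher in HIF-2α. The enrichment differences of the 2 exchanges had a Pearson correlation of 0.365 and a Spearman correlation of 0.349 across regions, a description in which regions share libraries, depth and base composition. In HIF-2α against HIF-2α/1α alone, 11 of 2959 regions passed as higher and 2 as lower.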

How the data were processed

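Anti-V5 Cut&Run of 786-O cells was used, 3 libraries each of HIF-1α/2α and HIF-1α, with 12 other anti-V5 lists for regions and the exchange on the HIF-2α DNA-binding region. Per the labels and the study's methods, the authors aligned reads to hg38 with Bowtie2 2.3.4.1, called peaks per library with MACS2 (version not given in the sources used here; q of 0.01, maximum gap of 400 bp, duplicates kept) each against its matched IgG control, and removed blacklisted regions with BEDTools 2.28.0. The submitters' processing notes also name SAMtools 1.8 and deepTools 3.5.1. The deposited lists hold, per peak, the fold enrichment over local background (a ratio), −log10 p and −log10 q, and the offset of the summit from the peak start.

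Peaks overlapping by at least 1 bp were merged, and regions with peaks in at least 2 of 18 lists were kept. Start sites of protein-coding genes came from GENCODE release 44. A region is named by its nearest start site. Fragments at summits and depth were solved from fold and −log10 p (matched within 0.001 for 100% of peaks of the 6 lists; for HIF-2α/1α replicate 2 only 0.12% matched, so its values are given with and without it). Since depth of sequencing sets which weak peaks are called, lists of equal length were used beside full lists; fragments are not independent molecules, and counting error only is covered by them. List measures were compared with two-sided exact permutation tests over 20 relabellings. Shared regions were fitted with limma 3.58.1 in R 4.3.3, centred on library medians, with Benjamini-Hochberg adjustment over 5072 regions. On simulated data of 5072 regions, log2 changes of 1 and 2 were recovered in 2% and 47% of cases for enrichment (1 false call) and in 58% and 95% for fragments (9 false calls). Python 3.11.15, NumPy 2.4.6, SciPy 1.17.1, pandas 2.3.3 and matplotlib 3.10.9 were used.

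The compared lines, gene lists and measures were chosen with earlier results of these data known. Named regions are the 6 with the largest enrichment difference in each direction (or the smallest p where fewer passed), the 5 highest-ranked line-only regions in each direction, all regions of the 6 loci the study names, and 2 regions per gene list. Alternatives were list length, ranking, thresholds, depth, region definition, motif windows, normalization and leaving out each library. IgG libraries were not analysed separately here, and regions of some genes in the lists are counted but not reported by name.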

Additional observations from a re-analysis of the deposited data

How the results depend on the processing

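The replicate numbers were not taken as pairs: deviations of same-numbered libraries from the line means correlated by 0.056, 0.090 and 0.015 across regions for enrichment and by 0.165, 0.193 and 0.034 for fragments, not all above 0.1. Between different numbers they ranged from -0.069 to 0.016 for enrichment and from -0.228 to 0.056 for fragments. Replicate 2 gave the longest list in every line, and whether the numbers mark a batch was not tested. With a replicate block, 36 regions were higher and 6 lower on enrichment, and 662 higher and 250 lower on fragments. For list measures the block allows no p below 0.25, and promoter share and GC content were at 0.25. With the block, TMEM270, CELSR3, CACNA1A and DMXL2 passed on enrichment (adjusted p between 0.035 and 0.046), and it ended the calls of 1 ANGPTL4 and 1 IGFBP3 site on fragments.

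Without any one library, the difference was -0.46 to -0.11 in log2 peak number, -4.57 to -1.83 points in promoter share, -2.55 to -1.06 in GC content and -8.26 to -3.57 in the share of knock-in regions called. HRE excess ranged from -1.09 to 0.321 and AP-1 excess from -0.342 to 0.400. Line-only regions, with fewer libraries to satisfy, numbered 173 to 399 for HIF-1α/2α and 845 to 1460 for HIF-1α. Calls at these regions in HIF-2α minus HIF-2α/1α differed by -7.99 to 18.4 and by -52.2 to -28.6 points. The contrasts kept their sign: promoter -0.39 to -0.30, GC -0.54 to -0.42, promoter within GC quintiles 2 to 4 -0.24 to -0.20 and HRE at promoters -0.10 to -0.08. On enrichment 4 to 19 regions were higher and 0 to 5 lower, on fragments 368 to 530 and 113 to 210, of which 113, 121 and 113 were lower without HIF-1α replicates 1, 2 and 3, 143 without HIF-1α/2α replicate 2, and 27 to 36 of the hypoxia regions were higher.

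HRE excess turned to 0.231 with peaks of −log10 q of at least 5 and to 0.482 with the longer motif TACGTG. AP-1 excess turned to 0.361 with that threshold, 0.201 and 0.241 at equal length by −log10 p and by fold, 1.13 in lists of 3984 peaks and 0.0574 in 100 bp windows. The share of knock-in regions turned to 0.383 at equal length by fold and 0.0594 in lists of 3984 peaks. Line-only counts at equal length were 236 and 330. On enrichment, quantile normalization gave 19 higher and 8 lower regions, no centring 5 and 1, rank scores 0 and 0 (limma; 920 at an unadjusted p below 0.05, smallest adjusted p 0.054), and fragments 638 and 239. On fragments, no centring gave 7 and 0 and quantile normalization 409 and 309; of the hypoxia regions 1 and 17 were higher. Without centring, differences between libraries in overall enrichment enter the spread. Over 405 values of 45 regions of gene lists on fragments, 138 lost their call and 1 changed sign, to -0.025 at IGFBP3 with quantile normalization. Over 130 values of the 12 named regions, 15 lost and 9 gained a call.

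A region not called is not shown to be unbound, and enrichment was compared only where all 6 lists had a peak. Both lines were single pools, and amount of protein, IgG background and GC-dependent recovery could not be separated from the IDR with these lists.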
